A study of Mus musculus with 1824 samples.

Results

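Tet1, Tet2, Tet3 and Tdg encode the enzymes of active DNA demethylation, and their transcripts were followed here across the cell types of gastrulation and early organogenesis. The 4 genes were taken by symbol from the 55487 genes of the count table. RNA had been sequenced from 1824 single cells of chimaeric mouse embryos with Smart-seq2, a full-length method on plates of 96 wells, with 11 plates labelled E7.5 (embryonic day) and 8 labelled E8.5. The paper describes some of these cells as profiled by scNMT-seq, which also reads DNA methylation and accessibility, and the others by RNA sequencing only. Most scNMT-seq cells were incubated with a GpC methylase before freezing. The sample labels do not name the protocol, but the sizes of these sets equal the numbers of E8.5 and E7.5 cells respectively. Protocol and stage may therefore coincide, so differences between E7.5 and E8.5 levels can carry the protocol. The labels give the strain as CD1. According to the methods, the embryos were wild-type C57BL/6J blastocysts injected with embryonic stem cells that lack all 3 Tet genes and carry an H2B-tdTomato label, carried by CD1 recipients. Each plate could hold host cells and knockout cells, since the labels of single cells give neither genotype nor sort gate. All values below are therefore those of sorted cells of unknown genotype, and no comparison of genotypes was made. The mixture of genotypes can differ between plates and between groups. In its chimaeras the paper found no injected cells in the trophoblast, so extraembryonic ectoderm-like cells may come from the host alone. The labels name an animal only for 4 of the E7.5 plates (embryos 1, 2, 4 and 5), although the methods describe pooled chimaeric embryos. No animal is named for chimera plate 3 and lane plates 1 to 6 of E7.5, nor for any plate of the later stage, which therefore counted as 1 sample and was not tested against E7.5.

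TET proteins are dioxygenases that oxidise 5-methylcytosine stepwise to 5-hydroxymethylcytosine, 5-formylcytosine and 5-carboxylcytosine, using iron and 2-oxoglutarate. TDG, thymine DNA glycosylase, excises the last pair of these bases, and base excision repair then restores an unmethylated cytosine. TET1 is known from pluripotent cells, TET2 from blood, and TET3 from the zygote and from differentiating tissues, and loss of TDG is lethal in the mouse embryo.

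In the GRCm38 annotation, Tet1 (ENSMUSG00000047146) lies on the minus strand at chr10:62804570-62908996, Tet2 (ENSMUSG00000040943) on the minus strand at chr3:133463679-133545139, Tet3 (ENSMUSG00000034832) on the minus strand at chr6:83362373-83459084 and Tdg (ENSMUSG00000034674) on the plus strand at chr10:82629828-82650799. All 4 are protein-coding. Their merged exons span 15457, 16870, 16695 and 5374 bases respectively, so levels are compared between genes only per kilobase of exon. The settings of the counting for strand and for reads with several matches were not stated, and 6.83% of the Tdg exon bases overlap exons of Glt8d2 on the opposite strand.

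Tdg has a close copy in the same table, the processed pseudogene Gm9855 (ENSMUSG00000085666, chr10:42054113-42055306, minus strand). Its 1194 bases matched the Tdg transcript with 9 mismatches, an identity of 99.2%. Of all 75-base windows of the Tdg transcript, 75 bases being the read length, 22.3% occurred unchanged in Gm9855, and 68.1% of the windows of Gm9855 occurred in Tdg. A second processed pseudogene, Tdg-ps, was 98.7% identical over 2968 bases. Reads of Tdg and of these copies can therefore be split by the counting, and the following stretches show how few bases distinguish Tdg from Gm9855. Each stretch is 30 bases of transcript, with the differing bases in capitals.

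Tdg, from transcript base 1079: gaccaActgaaaggcattgaacgcaacGcG

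Gm9855, from transcript base 850: gaccaGctgaaaggcattgaacgcaacAcC

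Tdg, from transcript base 1301: agaggagaagcgGcccccAgcgatgttccG

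Gm9855, from transcript base 1072: agaggagaagcgAcccccGgcgatgttccA

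Cells with at least 100000 reads were used, which left 1649 cells with a median of 670090 reads and between 65 and 94 cells per plate. Median depth per plate ran from 224956 to 1699478 reads. From sets of marker genes for 15 cell types, 1434 cells (86.96%) were assigned to a group, called here by the type with "-like". The score is a continuous range rather than a type, and 10.4% of cells lay near the limits for assignment. In every group its own marker score had the highest median over cells, which the rule of assignment fixes in advance. Between 4 and 7 of its markers were read in at least 25% of its cells at 2 or more times the mean level of the other cells. The same markers made the groups, so neither value tests the group names. Each of 21 combinations of group and stage held at least 20 cells. Of the check list for maternal decidua, Prl8a2, Prl3c1, Gzmd and Gzme were read in at most 3 cells each. The list's remaining gene, Cryab, which other tissues also use, was at 6.36 CPM. No epiblast-like cell and 1 nascent mesoderm-like cell were found at E8.5, so stage, group and plate cannot be told apart for many of the levels. Levels are given as reads of the gene per 1000000 reads of all cells of a group pooled (CPM). Intervals cover counting error only. In such pooled values, fewer cells with a transcript and less transcript per cell cannot be told apart.

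Tet1 was highest in the epiblast and lowest in red cells. Pooled Tet1 was 148.05 CPM (95% Poisson interval 145.8 to 150.3) in epiblast-like cells at E7.5, which were 8.73% of the cells kept, and 5.42 CPM (5.005 to 5.86) in erythroid-like cells at E8.5, which were 7.94%. The range was 27.3-fold. The epiblast is the pluripotent tissue from which the germ layers form. Across the 8 plates with at least 5 epiblast-like cells, Tet1 had a lowest value of 112.3 CPM, a median of 149.1 CPM and a highest value of 246.6 CPM. On the plates with at least 5 erythroid-like cells it was 9.44 CPM at E7.5 and 2.66 and 12.3 CPM at E8.5. No plate value of the erythroid-like cells came near one of the epiblast-like cells. A read of Tet1 was found in 95.1% of epiblast-like cells (exact 95% interval 90.2 to 98.02) and in 17.6% (11.5 to 25.2) of E8.5 erythroid-like cells after each cell was thinned to 100000 reads.

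The other combinations lay between these ends. Extraembryonic ectoderm-like cells, the trophoblast next to the epiblast, held 98.3 CPM and nascent mesoderm-like cells, which have just left the primitive streak, held 94.7 CPM. Caudal and neuromesodermal-like cells of both stages, E7.5 extraembryonic mesoderm-like, visceral endoderm-like, definitive endoderm-like and paraxial mesoderm-like cells, and E8.5 cardiac and surface ectoderm-like cells lay between 68.8 and 85.6 CPM, spanning all germ layers. Lowest in the order lay the 6 combinations of haematoendothelial-like, blood progenitor-like and erythroid-like cells, together with E8.5 extraembryonic mesoderm-like (44.2 CPM), myeloid-like (44.2 CPM) and visceral endoderm-like cells (40.8 CPM). Tet1 was 29.5 CPM at E7.5 and 31.2 CPM at E8.5 in haematoendothelial-like cells, which give rise to vessels and blood. It was 52.9 CPM and 17.6 CPM in blood progenitor and megakaryocyte-like cells at E7.5 and E8.5, and 8.95 CPM in E7.5 erythroid-like cells. Of the 20 steps between neighbours in this order, 1 was larger than the spread between plates of a group (0.81 on the log2 scale), the step from E8.5 blood progenitor-like to E7.5 erythroid-like cells. Sorting many values makes the steps between neighbours small. Here and for the genes below, such counts therefore cannot show whether groups differ or whether a series is gradual. The second rank, neural ectoderm-like cells at 139.1 CPM, rested largely on 1 cell that gave 65.9% of the Tet1 reads. Their mean over single cells was 83.7 CPM.

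**Figure D1:**
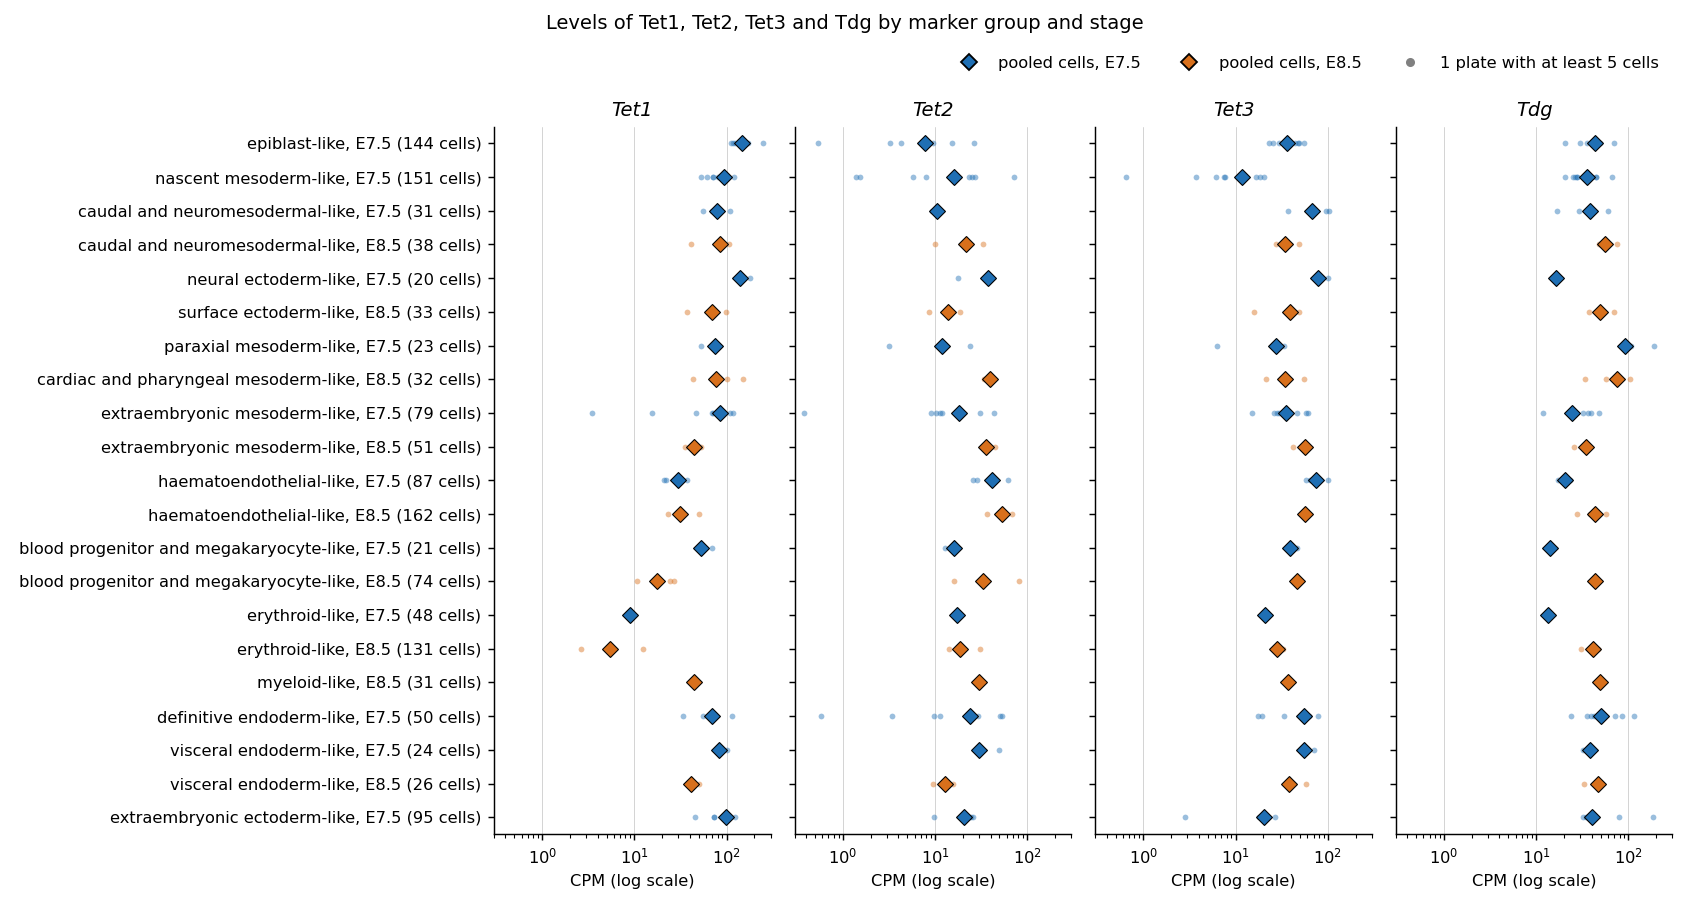
Level of each gene (CPM, log axis) in the 21 combinations of marker group and stage with at least 20 cells, blue for E7.5 and orange for E8.5. Diamonds are all cells pooled and small points are single plates with at least 5 cells, with values below 0.3 CPM outside the axis. Tet1 runs from 148.05 CPM in epiblast-like to 5.42 CPM in E8.5 erythroid-like cells, and Tet3 has its lowest level, 11.6 CPM, in nascent mesoderm-like cells.

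Tet2 was lowest where Tet1 was highest. It was highest in haematoendothelial-like cells, at 52.6 CPM (51.2 to 54.03) at E8.5 and 41.1 CPM (39.8 to 42.4) at E7.5, and lowest in epiblast-like cells, at 7.76 CPM (7.25 to 8.29). On the 3 E8.5 plates with at least 5 such cells, haematoendothelial-like Tet2 was 58.1, 68.1 and 36.8 CPM, and on the 3 such E7.5 plates it was 28.6, 62.4 and 25.9 CPM. In epiblast-like cells the 8 plates ran from 0.55 CPM over a median of 8.04 CPM to 26.7 CPM, so they overlapped those of the E7.5 haematoendothelial-like cells and lay below those of the E8.5 ones. A Tet2 read was found in 59.9% of E8.5 haematoendothelial-like cells and in 17.4% of epiblast-like cells. Erythroid-like cells held 18.8 CPM at E8.5 and 17.3 CPM at E7.5. Tet2 was the most uneven of the 4 genes between plates, with a spread within groups of 1.35 on the log2 scale, and none of the 20 steps between neighbours exceeded that spread.

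Tet3 was lowest in nascent mesoderm. Its pooled level was 11.6 CPM (11.1 to 12.2) in nascent mesoderm-like cells (9.16% of the cells kept), against 36.3 CPM (35.1 to 37.4) in epiblast-like cells. The 8 plates with at least 5 nascent mesoderm-like cells had a lowest value of 0.64 CPM, a median of 7.56 CPM and a highest value of 20.1 CPM, and the 8 plates of epiblast-like cells had 23.2, 38.1 and 54.8 CPM. These plate values did not overlap. A Tet3 read was found in 29.1% (22.04 to 37.1) of nascent mesoderm-like cells and in 68.1% (59.8 to 75.6) of epiblast-like cells. Extraembryonic ectoderm-like cells were also low, at 20.1 CPM. Tet3 was high in haematoendothelial-like cells, with 75.3 CPM at E7.5 and 56.7 CPM at E8.5, and in E7.5 caudal and neuromesodermal-like cells, with 66.8 CPM. It reached 78.6 CPM in neural ectoderm-like cells, of which 1 cell gave 51.3%. The spread between plates within groups was 0.82 on the log2 scale, and none of the 20 steps exceeded it.

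Tdg was read in the most cells of the 4 genes. Its level ranged from 13.3 CPM (12.3 to 14.3) in E7.5 erythroid-like cells to 91.5 CPM (86.7 to 96.5) in E7.5 paraxial mesoderm-like cells, the cells of the future somites. A Tdg read was found in 56.25% and 100% of these cells, and in at least 71.3% of the cells in each of the other 19 combinations. Epiblast-like cells held 43.6 CPM and nascent mesoderm-like cells 35.4 CPM. The groups at the low end, erythroid-like, blood progenitor-like, neural ectoderm-like and haematoendothelial-like cells at E7.5, came mostly from lane plates 1 to 4, where Tdg as a whole was low. The paraxial mesoderm-like cells at the top came mostly from lane plates 5 and 6, where Tdg as a whole was highest. Without either of these plates they numbered under 20, and E8.5 cardiac and pharyngeal mesoderm-like cells were highest, at 74.3 CPM. When Tdg was counted together with Gm9855 and Tdg-ps, the range shrank from 6.88-fold to 3.62-fold, from 33.5 CPM in E7.5 erythroid-like cells to 121.4 CPM in paraxial mesoderm-like cells. The spread between plates within groups became smaller too, from 0.64 to 0.41 on the log2 scale.

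Per kilobase of exon, Tet1 was the leading Tet gene in 15 of the 21 combinations and Tet3 in 6. In epiblast-like cells Tet1 made up 78.4% of the summed Tet level per kilobase, Tet3 17.8% and Tet2 3.77%. Nascent mesoderm-like cells had a Tet1 share of 78.8%, but more Tet2 (12.3%) than Tet3 (8.94%). In E8.5 erythroid-like cells the mix was 11.2% Tet1, 35.6% Tet2 and 53.2% Tet3. The 6 combinations led by Tet3 were the haematoendothelial-like and erythroid-like cells of both stages, the E8.5 blood progenitor-like cells and the E8.5 extraembryonic mesoderm-like cells. With the length of the longest transcript in place of all exons, the leading gene differed in 5 of 21 combinations, and Tet1 led in 11.

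The labelled embryos allowed a test of these differences within animals. Epiblast-like cells were summed in 4 embryos and nascent mesoderm-like, definitive endoderm-like and extraembryonic mesoderm-like cells in embryos 1, 2 and 5, with at least 5 cells per sum. With embryo as a block, embryo 4 has no second group to compare, so each fitted fold change rests on embryos 1, 2 and 5. Tet1 in epiblast-like cells was 170.4, 153.8, 246.6 and 144.5 CPM in embryos 1, 2, 4 and 5. In nascent mesoderm-like cells of embryos 1, 2 and 5 it was 100.4, 118.7 and 71.9 CPM, in definitive endoderm-like cells 66.3, 55.5 and 72.7 CPM, and in extraembryonic mesoderm-like cells 71.7, 46.8 and 109.9 CPM. All 9 of these sums were below all 4 epiblast-like sums. The fitted log2 fold change over epiblast-like cells was −0.65 (SE 0.29, edgeR quasi-likelihood adjusted p = 0.403) in nascent mesoderm-like cells. It was −1.27 (SE 0.29, adjusted p = 0.04996) in definitive endoderm-like and −1.07 (SE 0.29, adjusted p = 0.0733) in extraembryonic mesoderm-like cells.

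A gene was called at an adjusted p under 1% with an absolute log2 fold change of at least 1, so Tet1 was not called. The same held for the other members. None of the 12 member tests passed in edgeR, 5 of 12 had an unadjusted p under 0.05 (3 in nascent mesoderm-like cells and 1 in each other group), and DESeq2 called 3 of 12 (1 in each group). Those 3 were Tet1 in definitive endoderm-like (adjusted p = 0.00202) and in extraembryonic mesoderm-like cells (adjusted p = 0.00890), and Tet3 in nascent mesoderm-like cells (adjusted p = 0.00864). Of all 13556 genes tested by edgeR, 0.59% were called in nascent mesoderm-like cells (0.42% higher and 0.17% lower than in epiblast-like cells). The shares were 0.848% in definitive endoderm-like cells (0.634% higher and 0.214% lower) and 1.51% in extraembryonic mesoderm-like cells (0.988% higher and 0.524% lower). In the same order, 12.2%, 17.9% and 19.2% of all genes had an unadjusted p under 0.05 in edgeR, and DESeq2 called 3.67%, 4.94% and 7.01%.

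**Figure D2:**
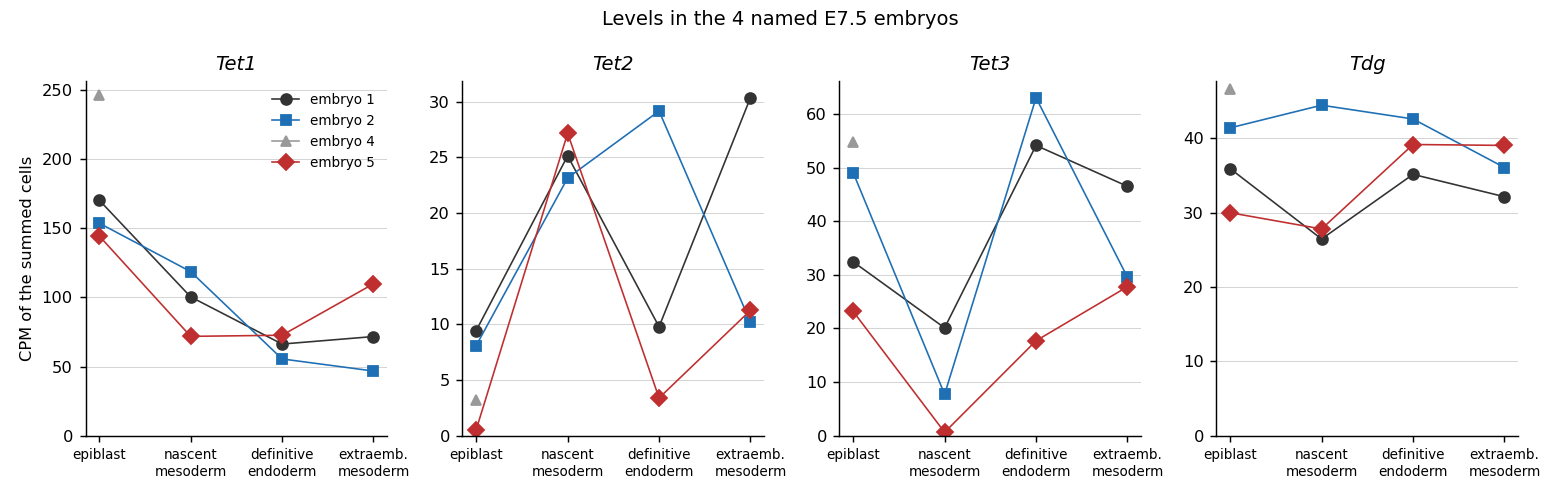
Level of each gene (CPM, linear axis from 0) in the summed cells of the 4 named E7.5 embryos, with 1 line per embryo joining its marker groups. Groups with under 5 cells in an embryo are not shown, which leaves embryo 4 with epiblast-like cells. Tet1 is highest in epiblast-like cells of each embryo, and Tet3 is lowest in nascent mesoderm-like cells of each of the 3 embryos with at least 5 of them.

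Tet3 in epiblast-like cells was 32.4, 49.04, 54.8 and 23.2 CPM in embryos 1, 2, 4 and 5. In nascent mesoderm-like cells of embryos 1, 2 and 5 it was 20.1, 7.72 and 0.64 CPM, the last from 3 reads. Each embryo's nascent mesoderm-like sum was below its own epiblast-like sum. The log2 fold change was −2.24 (SE 0.69, edgeR adjusted p = 0.186), and it was −3.43 without embryo 1 and −1.61 without embryo 5. In definitive endoderm-like cells Tet3 was 54.1, 63.01 and 17.7 CPM in these embryos, a log2 fold change of 0.21 (SE 0.64), and in extraembryonic mesoderm-like cells 46.5, 29.5 and 27.8 CPM, a log2 fold change of 0.024 (SE 0.64).

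Tet2 in epiblast-like cells was 9.45, 8.10, 3.21 and 0.55 CPM in the 4 embryos. In nascent mesoderm-like cells of embryos 1, 2 and 5 it was 25.1, 23.1 and 27.2 CPM, above every epiblast-like value. The log2 fold change was 2.58 (SE 0.89, edgeR adjusted p = 0.242), and it was 1.48 without embryo 5, whose epiblast-like sum held 2 Tet2 reads. In definitive endoderm-like cells the values were 9.79, 29.2 and 3.39 CPM (log2 fold change 1.29, SE 0.84, or 0.74 without embryo 2) and in extraembryonic mesoderm-like cells 30.4, 10.2 and 11.3 CPM (1.79, SE 0.86, or 1.17 without embryo 5). Tdg differed least, with log2 fold changes of −0.12 (SE 0.27), 0.14 (SE 0.27) and 0.010 (SE 0.27) in the order above, and counting its copies with it gave −0.13 (SE 0.22), 0.13 (SE 0.22) and −0.075 (SE 0.22).

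The same comparisons can be made plate by plate, with the embryos of the fit included. On the 7 plates with at least 5 cells of both groups, 3 of them embryos in the fit, Tet1 was lower in nascent mesoderm-like than in epiblast-like cells on 7 of 7, with a median log2 difference of −0.76. Tet3 was likewise lower on 7 of 7 plates, by a median of −2.52. Tet2 was higher on 5 and lower on 2 of the 7 plates, lane plates 5 and 6, where it was 1.40 and 1.56 CPM against 15.5 and 7.98 CPM in epiblast-like cells. With the same minimum, and the same 3 embryos counted again, Tet1 was lower in definitive endoderm-like cells on 6 of 7 plates. In extraembryonic mesoderm-like cells it was lower on 5 of 5. Plates are technical units and these counts carry no test.

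In single cells Tet1 was mostly read along with another Tet gene. After thinning, Tet1 was read in 64.3% of the 1649 cells, Tet3 in 62.1%, Tet2 in 40.3% and Tdg in 85.6%. Of these cells 47.8% had Tet1 together with Tet2 or Tet3, 16.4% had Tet1 without the other two, 26.4% had Tet2 or Tet3 without Tet1, and 9.28% had none of the 3. The share with both Tet1 and Tet3 was 0.86 to 1.38 times the product of the separate shares over the 21 combinations, with a median of 1.05. For Tet1 and Tet2 the ratio ran from 0.40 to 1.37, with a median of 1.03, and its lowest value came from 31 caudal and neuromesodermal-like cells at E7.5. Such a ratio is bounded by the inverse of the larger share, so it had little room above 1 where Tet1 was read in nearly every cell, as in epiblast-like cells. In E8.5 erythroid-like cells, where both were read less often, the ratios were 1.37 with Tet2 and 1.38 with Tet3. They rest on 9.16% of cells against 6.70% for Tet2 and 12.2% against 8.85% for Tet3, without an interval. These cells pool E8.5 plates 1 and 2, where Tet1 was read in 18.5% and 31.9% of all cells. Pooling plates with unlike shares can raise such a ratio above 1, so no shared expression is concluded.

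The mix differed between cell types. In epiblast-like cells 25.7% had Tet1 alone, 69.4% had it with Tet2 or Tet3, and 1.39% had Tet2 or Tet3 without it. The share with Tet1 alone was highest in nascent mesoderm-like cells, at 37.7%. Of the E7.5 haematoendothelial-like cells 42.5% had Tet1 with Tet2 or Tet3, and 55.2% had Tet2 or Tet3 without Tet1. In E8.5 erythroid-like cells 51.1% had Tet2 or Tet3 without Tet1 and 31.3% had no Tet read at all. Cells of knockout origin are among those counted, and which reads come from deleted alleles cannot be told apart. The median number of genes read per thinned cell was 7435.5 in epiblast-like and 5919 in E8.5 erythroid-like cells, and its part in these shares was not tested.

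**Figure D3:**
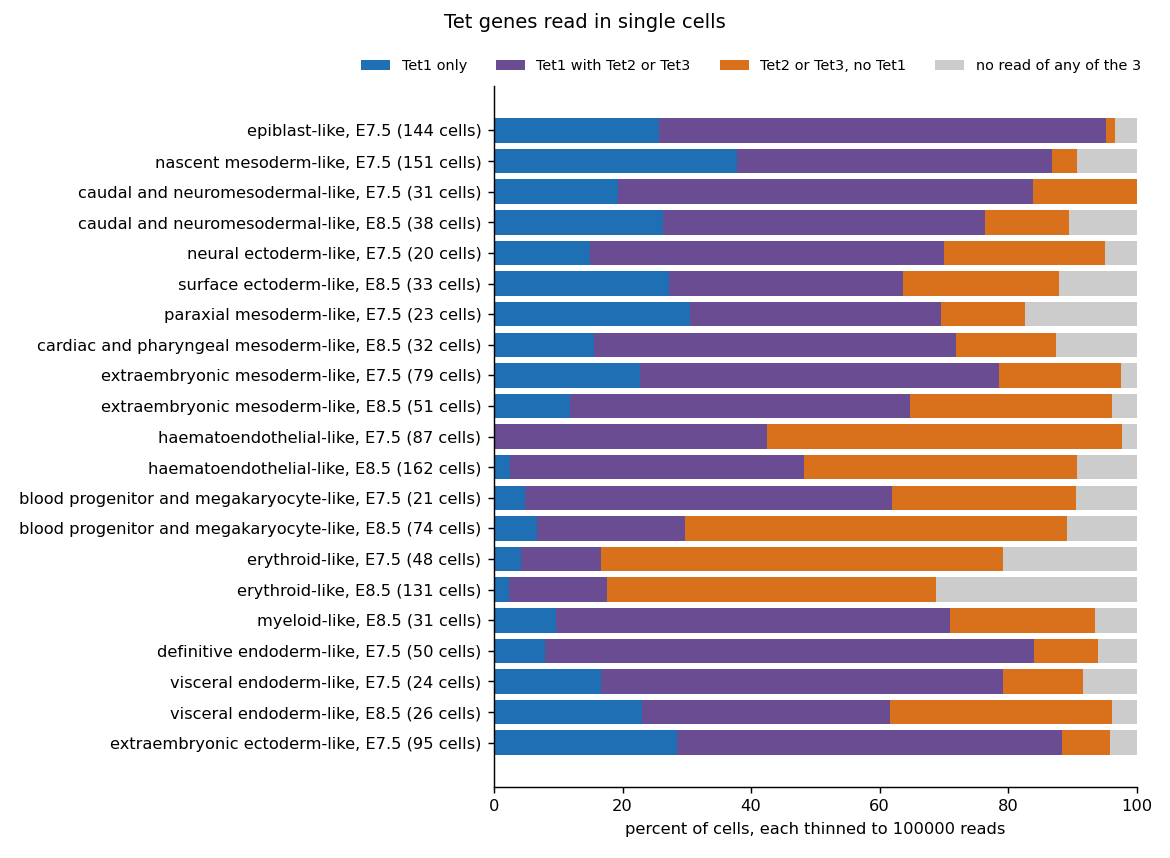
Percent of cells (horizontal axis, each cell thinned to 100000 reads) with a read of Tet1 only, of Tet1 with Tet2 or Tet3, of Tet2 or Tet3 without Tet1, or of none, in each marker group and stage. Cells with Tet2 or Tet3 but no Tet1 are 1.39% of epiblast-like and 51.1% of E8.5 erythroid-like cells.

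The genes around these enzymes were taken as 3 lists. The first list, genes of base excision repair, held no called gene. Of its 12 genes 11 were tested, and 0 were called in each of the 3 comparisons by edgeR and 0 by DESeq2, with 1 gene per comparison at an unadjusted p under 0.05. Over all genes, edgeR called 0.59%, 0.848% and 1.51% in nascent mesoderm-like, definitive endoderm-like and extraembryonic mesoderm-like cells, and DESeq2 3.67%, 4.94% and 7.01%. In the same order, 12.2%, 17.9% and 19.2% of all genes had an unadjusted p under 0.05. The list's median log2 fold change was −0.025 in nascent mesoderm-like, −0.047 in definitive endoderm-like and 0.067 in extraembryonic mesoderm-like cells, beside 0.0067, −0.064 and −0.073 over all genes. Parp1, the strand-break sensor that recruits repair factors, lay between 174.9 and 516.3 CPM over the 21 combinations. The alternative glycosylase gene Neil2 lay between 0 and 4.48 CPM.

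Tet partners and regulators were also not called by edgeR, 0 of 11 tested in each comparison, with 2, 2 and 4 genes at an unadjusted p under 0.05 in nascent mesoderm-like, definitive endoderm-like and extraembryonic mesoderm-like cells. In the same order, 12.2%, 17.9% and 19.2% of all genes had such a p, and edgeR called 0.59%, 0.848% and 1.51%. DESeq2 called none of them in nascent mesoderm-like and definitive endoderm-like cells, beside 3.67% and 4.94% of all genes. In extraembryonic mesoderm-like cells it called 2, Gadd45g and Nanog, beside 7.01% of all genes. Gadd45g, a stress-response gene linked to demethylation, had a log2 fold change of 3.32 (SE 0.74, edgeR adjusted p = 0.0332) there, and Nanog, a pluripotency factor that binds TET1, had −3.12 (SE 0.68, edgeR adjusted p = 0.0290). The medians of the list were −0.18, 0.0012 and 0.24, beside the same values over all genes as above. Ogt, whose glycosyltransferase product binds TET proteins, was present throughout, at 131.8 to 414.8 CPM.

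The list of DNA methyltransferases and their cofactors held called genes. Of its 5 tested genes, Dnmt1, Dnmt3a, Dnmt3b, Uhrf1 and Uhrf2, 1 fell in nascent mesoderm-like cells and 2 fell in each of the other comparisons, with 0 higher. Over all genes, 0.17%, 0.214% and 0.524% were called lower in nascent mesoderm-like, definitive endoderm-like and extraembryonic mesoderm-like cells. The genes that fell were the de novo methyltransferase genes. Dnmt3b fell in all 3 groups, with log2 fold changes of −2.77 (SE 0.15, edgeR adjusted p = 2.62e-05) in nascent mesoderm-like, −1.46 (SE 0.15, adjusted p = 0.00113) in definitive endoderm-like and −3.33 (SE 0.16, adjusted p = 4.15e-06) in extraembryonic mesoderm-like cells. Dnmt3a fell in definitive endoderm-like (−2.78, SE 0.36, edgeR adjusted p = 0.00369) and extraembryonic mesoderm-like cells (−2.64, SE 0.36, adjusted p = 0.00299), and had −1.86 (SE 0.35, adjusted p = 0.0258) in nascent mesoderm-like cells, where DESeq2 called it. The list's medians were −0.36, −0.28 and 0.079 in the order above. The pooled level of Dnmt3b was 2932 CPM in epiblast-like and 27.1 CPM in E8.5 erythroid-like cells. Dnmt3b thus had its highest and lowest levels in the same 2 combinations as Tet1.

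The genes whose levels followed each member most closely over the 21 combinations were found by Pearson's r of log2 levels among 13141 genes. The points share libraries and plates, so r is a description. For Tet1 they were Atf2 (r = 0.90), a transcription factor gene, Lin28a (r = 0.90), which encodes an RNA-binding protein of pluripotent cells, and Ldhb (r = 0.89), a lactate dehydrogenase subunit gene. Lin28a ran from 631.6 CPM down to 4.44 CPM. For Tet2 the closest were Mbd6 (r = 0.83), Slc39a13 (r = 0.80), a zinc transporter gene, and Gem (r = 0.76). For Tet3 they were Zc3h12c (r = 0.75), Fam174b (r = 0.75) and Rcan3 (r = 0.70). Tdg had Rpl34 (r = 0.86), a ribosomal protein gene, Zfp622 (r = 0.85) and Mad1l1 (r = 0.84). These r used Tdg without its copies, so they can carry plate differences in how reads were split with Gm9855. Among the members themselves the highest r was 0.42, between Tet2 and Tet3, and Tet1 had −0.19 with Tet2 and 0.090 with Tet3.

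Levels also differed between plates, which held different cells. Tet1 on the 11 E7.5 plates had a lowest level of 30.7 CPM on lane plate 2, a median of 86.6 CPM and a highest level of 125.5 CPM in embryo 4. On E8.5 plates 1 to 8 it was 10.4, 17.6, 23.5, 57.9, 21.7, 33.2, 49.8 and 83.2 CPM. Each odd plate thus lay below the next even plate in Tet1. The same held for Tet2, with 13.2, 30.9, 51.1, 52.3, 22.9, 46.1, 22.7 and 23.04 CPM on plates 1 to 8. Tet3 was lower on plates 1, 5 and 7 than on the next plate, and higher on plate 3. Pooled E8.5 levels combine odd and even plates. E8.5 plates 1 and 2 had the lowest Tet1 and held 73 and 57 erythroid-like cells. Lane plate 2, with 55 haematoendothelial-like cells, had the lowest Tet1 and the highest Tet2 (47.3 CPM) and Tet3 (92.8 CPM) of the E7.5 plates. Tet2 ran from 6.24 CPM on chimera plate 3 and Tet3 from 15.8 CPM on the same plate. On the E8.5 plates Tet2 lay between 13.2 and 52.3 CPM and Tet3 between 30.6 and 57.4 CPM, both lowest on plate 1.

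**Figure D4:**
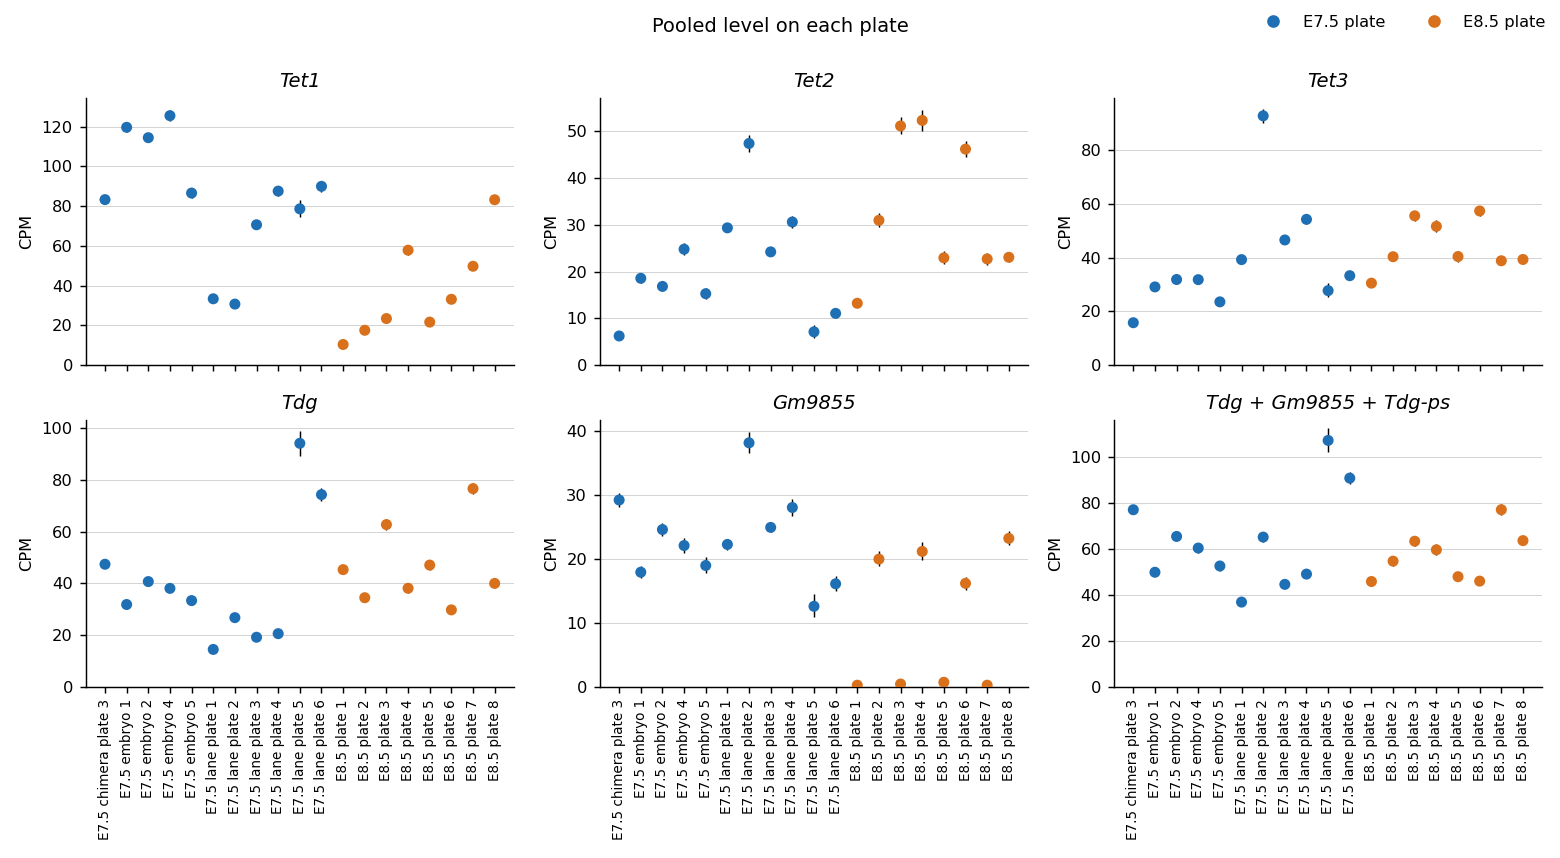
Pooled level (CPM, linear axis from 0) on each of the 19 plates for the 4 genes, for the pseudogene Gm9855 and for Tdg summed with its copies. Bars are exact 95% Poisson intervals, which cover counting error only. Gm9855 is under 1 CPM on E8.5 plates 1, 3, 5 and 7 and at 16.2 to 23.2 CPM on plates 2, 4, 6 and 8, while the sum of Tdg and its copies lies between 45.8 and 77.1 CPM on all 8.

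Tdg followed another pattern. On E8.5 plates 1, 3, 5 and 7 it was 45.3, 62.7, 47.1 and 76.7 CPM, and on plates 2, 4, 6 and 8 it was 34.4, 38.1, 29.7 and 39.97 CPM. The pseudogene Gm9855, singled out after its values were seen, was 0.22, 0.40, 0.68 and 0.22 CPM on the former plates and 19.97, 21.2, 16.2 and 23.2 CPM on the latter. Summed with both copies, Tdg was 45.8, 63.3, 47.9 and 77.1 CPM on the former and 54.7, 59.6, 45.96 and 63.6 CPM on the latter, so that the ranges overlapped throughout. The labels give no difference between odd and even plates, and what sets them apart was not tested.

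The same split was visible cell by cell. Among cells with at least 10 reads of Tdg and Gm9855 together, the median share counted to Gm9855 was 34.7% to 38.3% on chimera plate 3 and the embryo plates and 35.1% to 37.4% on E8.5 plates 2, 4, 6 and 8. It was 0% on E8.5 plates 1, 3, 5 and 7, where 94.3% to 97.3% of cells lay under 5%. Lane plates 1 to 4 had medians of 58.1% to 63.2%. On lane plates 5 and 6 cells of both kinds were present, with 71.4% and 56.8% of cells under 5% and a 90th percentile of 65.9% and 64.2%. Tdg itself was highest on these last plates, at 94.2 and 74.4 CPM, and lowest on lane plates 1 to 4, at 14.4 to 26.7 CPM. The order of the plates did not follow the share throughout, since chimera plate 3 had 47.4 CPM at a median share of 38.3% and E8.5 plate 1 had 45.3 CPM at 0%. Differences in Tdg between plates of different shares were not read as differences in expression.

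**Figure D5:**
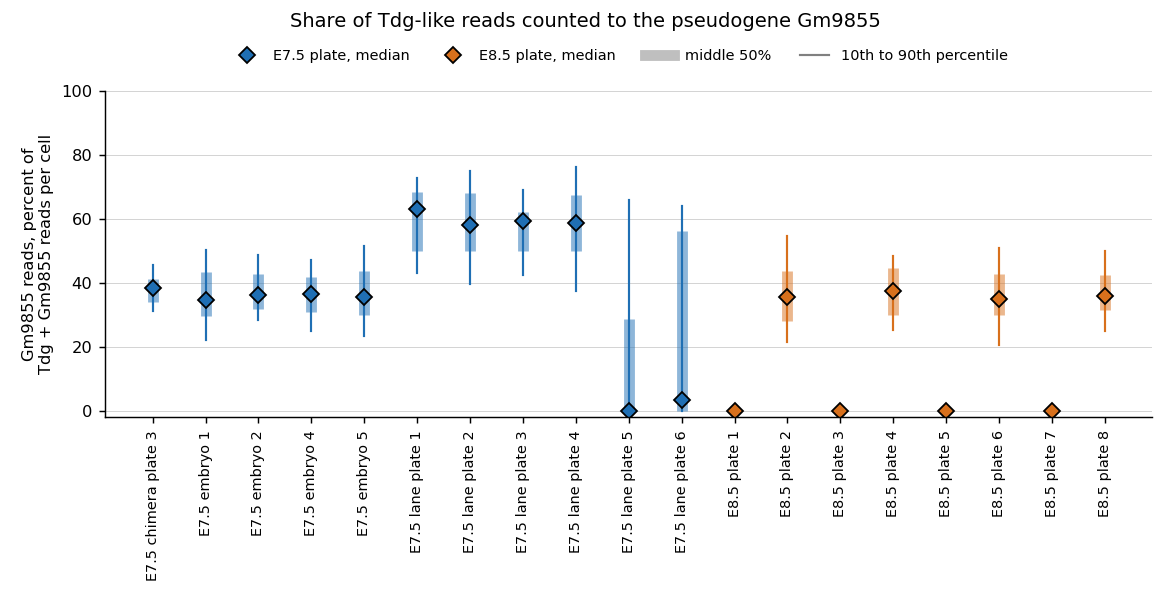
Reads counted to Gm9855 as a percent of Tdg and Gm9855 reads in each cell (vertical axis) by plate, for cells with at least 10 such reads. Diamonds are medians, thick bars the middle 50% of cells and thin lines the 10th to 90th percentile. The median is 0% on E8.5 plates 1, 3, 5 and 7, near 36% on the other E8.5 plates and the embryo plates, and 58.1% to 63.2% on lane plates 1 to 4.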

How the data were processed

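The authors aligned 75-base single-end Smart-seq2 reads to GRCm38 with HISAT2 2.1.0 and deposited raw counts per gene and cell from featureCounts. There are no molecular identifiers. All 1824 columns matched a labelled cell and 55141 identifiers matched a symbol. Members, marker lists and pathway lists were chosen with earlier results of these data known.

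Cells with at least 100000 reads were kept (highest 6162793), and no doublet caller was run. Each cell received the marker group with the highest mean standardised log2(CPM + 1), if this was at least 0.5 and led by 0.25. No columns were identical. CPM pooled all reads of the cells, and log2 levels added 1 CPM. Thinning drew 100000 reads per cell.

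Counts were summed per embryo and group and tested over all genes with edgeR 4.0.16 (TMM, filterByExpr, quasi-likelihood, embryo as block, Benjamini-Hochberg) under R 4.3.3. Each SE was derived from the test, as the absolute log2 fold change divided by the square root of the quasi-likelihood F statistic. Sums with the same embryo number come from the same labelled embryo, which sets the pairing. A minimum of 10 cells per sum was planned, left 0 groups with sums in 3 embryos, and was lowered to 5 after cell numbers were seen. E8.5 counted as 1 sample, without tests. Each embryo is 1 plate, so embryo and plate cannot be told apart. DESeq2 1.42.0, Leiden clusters (scanpy 1.11.5) and the other alternatives appear in the closing section. Tests were checked on simulated counts of nascent mesoderm-like over epiblast-like cells. The simulation held no embryo effects and no other group differences, so its shares need not hold for the real sums. Of 100 genes simulated with an absolute log2 fold change of 1, 95 passed the filter and 4 were called. Of 100 with 2, 90 passed the filter and 35 were called. Of 13356 genes simulated without a change, 12729 passed the filter and 0 were called. Most changes of these sizes were thus missed, and a gene that was not called may still differ. Genes named for likeness had at least 10 CPM in 1 combination, and the 3 with the highest r were taken. Sequences and positions came from GENCODE M21 on GRCm38.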

Additional observations from a re-analysis of the deposited data

Results flagged for a closer look

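Of 32 sets of 4 to 10 plate or embryo values examined, 2 held a value far from its neighbours, and chance gives such a value in about 1 of 20 sets. Tet1 in epiblast-like cells was 246.6 CPM in embryo 4, from 8 cells, while the other 7 plates lay between 112.3 and 170.4 CPM. Tet2 in nascent mesoderm-like cells was 71.2 CPM on lane plate 4, from 6 cells, and at most 27.2 CPM on the other 7 plates.

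The 72 wells with under 4000 reads, which entered no comparison, held 120276 reads in all, among them 6 of Tet1, 5 of Tet3, 8 of Tdg and 0 of Tet2. This amounts to 49.9 CPM for Tet1 (exact 95% Poisson interval 18.3 to 108.6), 41.6 CPM for Tet3 (13.5 to 97.01) and 66.5 CPM for Tdg (28.7 to 131.06), above the 24.9 CPM that 3 counts would give. Whether these wells held a cell was not tested.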

How the results depend on the processing

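With the planned minimum of 10 cells per sum, and with 20, the embryo comparison could not be fitted, as no group was left. Numbers of called genes are given as percent of the 13556 genes of the reported fit, in nascent mesoderm-like, definitive endoderm-like and extraembryonic mesoderm-like cells, where they were 0.59, 0.848 and 1.51. Without the replicate block they were 1.25, 1.71 and 2.83, with DESeq2 3.67, 4.94 and 7.01, with no filter on low counts 1.70, 2.19 and 3.202, and with thinned cells 1.88, 1.87 and 2.94. Leiden clusters gave 1.52 and 4.73, with no definitive endoderm-like sums to fit. Leaving out an embryo gave 0.0738 to 0.590, 0.0590 to 0.797 and 0.317 to 1.43, lowest without embryos 2, 1 and 2 respectively.

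Tet1 passed the threshold in definitive endoderm-like cells with DESeq2 (−1.23) and thinned cells (−1.34), and in extraembryonic mesoderm-like cells with DESeq2 (−1.06), Leiden clusters (−1.03) and thinned cells (−1.24). Tet3 passed in nascent mesoderm-like cells with DESeq2 (−2.30). No other member test passed under any alternative run. Fold changes near 0 turned sign. Tet3 in extraembryonic mesoderm-like cells was −0.18 without the block, −0.00020 without the filter, −0.57 with Leiden clusters, and −0.18 to 0.36 when an embryo was left out. Tdg there was −0.091 without the block, −0.021 without the filter, −0.075 with its copies (an alternative chosen after seeing the data), −0.30 with thinned cells, and −0.19 to 0.11 without an embryo. Tdg in definitive endoderm-like cells was −0.020 with thinned cells and −0.0016 to 0.22 without an embryo, and in nascent mesoderm-like cells 0.078 with Leiden clusters and −0.22 to 0.0059 without an embryo.

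The log2 ratio of the highest to the lowest group was 4.54 for Tet1 and lay between 3.90 and 5.36 when a plate was left out, the ends being without E8.5 plates 1 and 2. For Tdg it was 2.69, and 1.83 with its copies. The alternatives of cell filter, grouping and scaling kept the highest and lowest combinations of Tet1 and of Tet2, but leaving out a plate did not. Without E8.5 plate 1 the lowest Tet1 was in E7.5 erythroid-like cells (8.95 CPM), without embryo 4 the lowest Tet2 was in paraxial mesoderm-like cells (4.84 CPM), and without lane plate 3 the highest Tet2 was in E7.5 haematoendothelial-like cells (54.6 CPM). The highest Tet3 became E7.5 haematoendothelial-like cells with 4 of the alternatives. The highest Tdg became E8.5 cardiac and pharyngeal mesoderm-like cells with the wider margin (75.2 CPM), and its lowest became E7.5 blood progenitor-like cells without haemoglobin genes in the library size (14.2 CPM). Without thinning, 41 of 84 shares of cells with a read moved beyond their counting interval.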
